A study of Mus musculus with 16 samples.

Results

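The long small nucleolar RNAs (snoRNAs) are the rows of the deposited small RNA table that carry the class label for snoRNA and span more than 110 bases, without the rows Gm26205 and Snord22. The rule uses annotation and length only, and it gave 137 rows of the 1264 small RNA rows analysed, or 137 of the 279 snoRNA rows. The libraries came from mouse tracheal epithelial cells in primary culture, a model in which multiciliated cells form once the apical side meets air. Cultures from p73 knock-out mice (KO) and from wild-type mice (WT) were taken at days 0, 4, 7 and 14 after exposure to air, with 2 libraries per genotype and day and 16 in all. The gene removed encodes a relative of p53 that controls transcription. Its transcript is not among the small RNAs measured, so the knock-out could not be checked here. The strain, sex and age of the mice and how many animals went into a culture are not stated in the labels. Reads recovered over the small RNA rows with a value ran from 197497 (WT day 0 replicate 2) to 1777259 (WT day 14 replicate 2) per library. These are not full library sizes.

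SnoRNAs guide the chemical modification of other RNAs in the nucleolus or take part in cutting the ribosomal RNA precursor. The H/ACA class folds into a pair of hairpins followed by an H box and an ACA box and directs pseudouridine formation, while the C/D class has a C box near its start and a D box near its end and directs ribose methylation. U3 and U8 are unusual C/D snoRNAs that act in precursor cleavage, and small Cajal body RNAs (scaRNAs) are relatives that act on spliceosomal RNAs. Most mammalian snoRNAs are cut from introns of host genes, many of which encode ribosomal proteins or translation factors.

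By name, the long rows were 35 Snora genes, 7 Scarna genes, 6 Snord genes, 2 U3 genes (Rnu3a and Rnu3b3), 3 genes named as miRNA precursors and 84 predicted genes. Their lengths ran from 111 to 414 bases with a median of 135. Snord67 and Snord90, at 111 bases, were just above the length limit, and Snord8 and Snord89, at 110 bases, just below it. The GENCODE M21 transcripts for mm10 held a sequence for all 137 long rows and for 132 of the 140 short ones. The letters ACA stood exactly 3 bases from the 3′ end in 88 long rows (64.2%) and in 4 short rows (3.03%). All letters were searched on the RNA strand. An H box (ANANNA, in the middle one of 3 equal parts) was present in 122 long rows (89.1%) and in 37 short rows (28.0%). The C box TGATGA in the first 20 bases and the D box CTGA in the last 15 were both present in 11 long rows (8.03%) and in 82 short rows (62.1%). The group was therefore mostly of the H/ACA kind but not wholly: of the 35 Snora rows, 28 had the ACA box 3 bases from the end, while the long Snord rows and U3 belong by name to the C/D class. These letters describe the sequences and are no test of function.

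**Figure D1:**
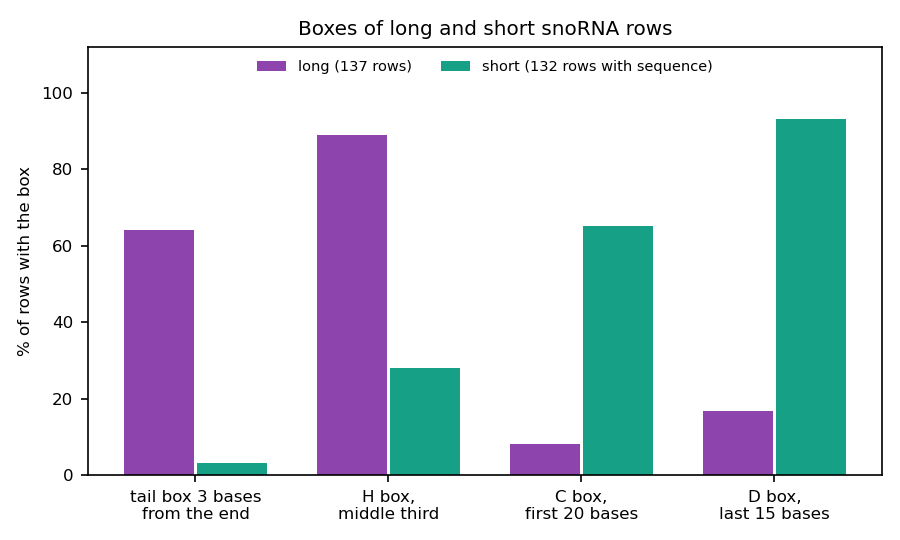
Share of rows (vertical axis, %) that held each snoRNA box, for long rows (purple) and short rows (green). The tail box is the ACA triplet and the H box its hinge counterpart, both more frequent in long rows (64.2% and 89.1%) than in short rows (3.03% and 28.0%), while the D box was present in 16.8% of long rows and 93.2% of short rows.

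5 members are printed here because the results below turn on them; positions are mm10, and the sequences are those of GENCODE M21 in DNA letters. Rnu3a, a U3 gene with no host gene (chr10:40258467-40258678, plus strand), and Snord118, the U8 gene (chr11:69073427-69073561, plus strand), have capitals at TGATGA and at the terminal CTGA. Snora52 (chr7:141448803-141448939, plus strand, in an annotated exon of the ribosomal protein gene Rplp2) and Snora41 (chr1:63179004-63179135, plus strand, in an intron of the translation elongation factor gene Eef1b2) have capitals at the H box nearest their centre and at the ACA box. Gm23262 (chr7:111076060-111076227, minus strand, across an exon edge of the translation factor gene Eif4g2) held none of the boxes searched. Its capitals mark the first 6 and the last 6 bases, which are complementary.
Rnu3a: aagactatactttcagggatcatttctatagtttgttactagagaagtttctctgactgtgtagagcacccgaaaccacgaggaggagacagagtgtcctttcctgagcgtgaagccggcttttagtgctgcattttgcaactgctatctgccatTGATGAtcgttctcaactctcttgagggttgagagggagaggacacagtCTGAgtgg
Snord118: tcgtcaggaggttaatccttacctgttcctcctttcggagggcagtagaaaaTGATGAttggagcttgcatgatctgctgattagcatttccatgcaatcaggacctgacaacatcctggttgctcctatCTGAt
Snora52: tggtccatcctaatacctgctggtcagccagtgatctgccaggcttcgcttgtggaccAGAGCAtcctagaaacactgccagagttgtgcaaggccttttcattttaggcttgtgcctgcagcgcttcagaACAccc
Snora41: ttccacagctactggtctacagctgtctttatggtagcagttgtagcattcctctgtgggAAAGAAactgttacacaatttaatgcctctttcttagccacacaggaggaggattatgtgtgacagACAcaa
Gm23262: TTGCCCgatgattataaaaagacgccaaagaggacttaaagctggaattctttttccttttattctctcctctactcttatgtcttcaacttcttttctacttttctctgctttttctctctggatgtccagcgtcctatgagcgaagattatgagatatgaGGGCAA

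Long snoRNAs were a small part of the libraries, 0.16% to 0.378% of the reads in small RNA rows with a value, against 1.16% to 2.57% for short snoRNAs. All shares of reads given here have that base, in which reads of a row that overlaps a miRNA row can be counted in both. All levels that follow are normalised read counts, the authors' values put on 1 scale across days. Rows of miRNAs made up 92.5% to 97.1% of the reads. Lengths are those of the annotated rows, and whether the reads of a long row came from whole RNAs or fragments was not tested. A level is thus a count of reads in a row and not the amount of intact RNA. Values were given for 133, 106, 33 and 35 of the 137 rows at days 0, 4, 7 and 14. The other rows were listed with no value at those days, which is not a measured zero. For a test, a row needed a deposited value of 10 or more in 2 or more libraries at every day involved. 30, 36, 33 and 35 rows met this at days 0, 4, 7 and 14, 40 rows at 1 day or more and 26 at all 4. A further 25 rows had at most 1 read in every library of days 0 and 4 for which a value was given.

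Per 100 bases, Snord118 had the highest level at day 0, with 111 and 86.6 in KO libraries and 98.2 and 59.7 in WT libraries. Next came Scarna3a, with 62.1 and 37.8 in KO and 73.2 and 101 in WT, then Snora16a, with 43.8 and 57.3 in KO and 79.7 and 37 in WT. Snora41 was the most even of the leading rows, at 55.2 and 52.7 in KO and 51.7 and 54.5 in WT. The rest of the 10 highest were Snora52, Gm22362, Snora61, Gm23262, Mir1839 and Snora24, at means of 45.0, 36.9, 36.7, 32.1, 25.9 and 25.8 per 100 bases. For Scarna3a and Mir1839, most of the level was matched by a miRNA row inside them, described below. Their level per 100 bases of annotated length is thus no measure of the whole RNA. Replicates of Snora61 and Gm22362 lay far apart in WT, with 6.17 and 54.2 and with 8.99 and 59. Neighbours in this order did not differ beyond the spread of their 4 libraries. Together the 10 rows held 47.5% of the summed level of all long snoRNAs at day 0.

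Other classic members were near the limit of detection. Rnu3b3, the second U3 row, had 3 and 4 reads in the KO libraries of day 0 and 2 and 1 reads in the WT libraries, against 72 and 55 KO reads and 24 and 27 WT reads for Rnu3a. Snora73a, the U17 RNA that acts in ribosomal RNA processing, had 11 and 0 reads in KO and 0 and 0 reads in WT at day 0. A count of 0 reads allows up to 3, so no fold is given. Snora73b, 96.6% identical to it and also in an intron of the host Rcc1, had 4 and 0 KO reads and 0 and 2 WT reads. Their near identity means that reads could have been split between them. Snora74a, the U19 RNA, had normalised counts of 4.91 and 1.86 in KO and 4.02 and 1.43 in WT at day 0, and 24.4 and 22.3 in KO and 16.3 and 10.3 in WT at day 14. Rnu3a itself was 86.4% identical to its nearest long row, Gm23927. Of the 40 rows tested, 2 had another long row at 90% identity or more.

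Rows of 10 members overlapped rows of miRNAs on the same strand, so the same reads can appear in both. 3 of the abundant ones are printed to show where the miRNAs lie: Scarna3a (chr1:159340283-159340422, plus strand, in an intron of the ubiquitin ligase gene Cop1), Scarna3b (chr12:80391613-80391751, minus strand, in an intron of Dcaf5) and Mir1839 (chr7:81529855-81529981, plus strand). Their mature miRNA segments, from RefSeq for GRCm38.p6, are in capitals: miR-1843b-5p and miR-1843b-3p in Scarna3a, miR-1843a-5p and miR-1843a-3p in Scarna3b, and miR-1839-5p in Mir1839.
Scarna3a: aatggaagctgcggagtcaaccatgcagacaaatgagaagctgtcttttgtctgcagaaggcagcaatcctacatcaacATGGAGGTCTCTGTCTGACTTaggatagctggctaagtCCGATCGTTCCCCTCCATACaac
Scarna3b: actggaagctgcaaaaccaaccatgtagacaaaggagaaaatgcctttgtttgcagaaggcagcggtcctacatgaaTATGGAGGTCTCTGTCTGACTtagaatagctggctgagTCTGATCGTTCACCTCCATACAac
Mir1839: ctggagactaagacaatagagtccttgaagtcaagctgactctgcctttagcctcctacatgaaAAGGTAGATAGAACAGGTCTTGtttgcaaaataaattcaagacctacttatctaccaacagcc
The miR-1843b-3p row reached 0.725 to 0.911 of the Scarna3a row over the 16 libraries. At day 14 it had 185 and 193 in KO and 179 and 85.7 in WT, where Scarna3a had 203 and 227 in KO and 215 and 118 in WT. The miR-1839-5p row reached 0.8 to 1 of the Mir1839 row. The miR-1843a-5p row was 0.5 to 0.81 of Scarna3b, and miR-664-5p was 0.444 to 0.867 of Snora36b. As to the other arms, miR-1843b-5p was 0.0512 to 0.261 of Scarna3a and miR-1843a-3p was 0.19 to 0.5 of Scarna3b. The miR-664-3p row was 0.256 to 0.556 of Snora36b in 8 libraries. In KO day 0 replicate 3, miR-1843b-3p and miR-1843b-5p had 40.8 and 12.1, where Scarna3a had 52.9. In KO day 14 replicate 3 they had 193 and 11.6, where Scarna3a had 227. In WT day 14 replicate 3, miR-1843a-3p and miR-1843a-5p had 17.1 and 58.3, where Scarna3b had 75.4. In every library most of the level of the Scarna3a and Mir1839 rows was thus matched by that of a single miRNA row. Scarna3a and Scarna3b were 85.7% identical. The other overlapping rows were Gm26083, Scarna13, Snora34, Snora47, Mir1949 and Mir3068, whose miRNAs were at most 6.89 in any library.

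**Figure D2:**
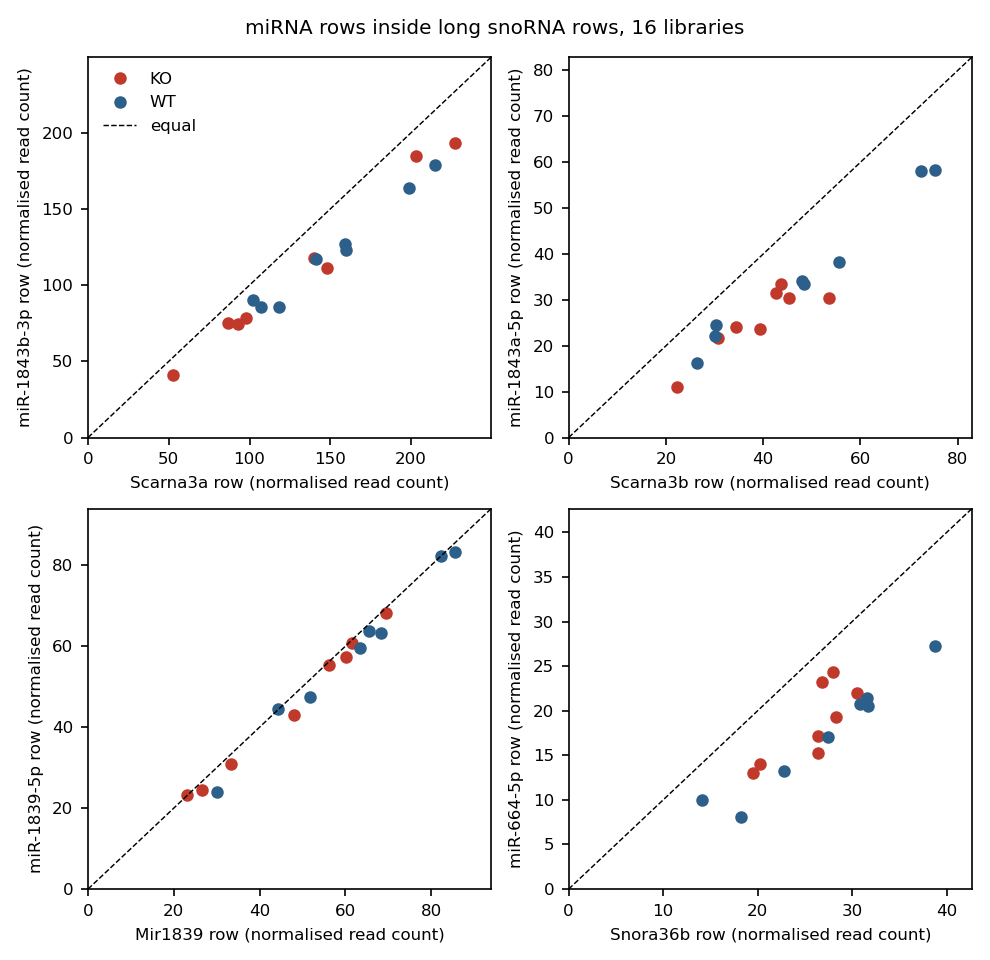
Normalised read count of a miRNA row (vertical axis) against that of the long snoRNA row that contains it (horizontal axis), 1 point per library, KO in red and WT in blue. The points of Mir1839 lie on or just under the dashed line of equality (ratio 0.8 to 1) and those of Scarna3a lie at 0.725 to 0.911 of it.

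Day 14 was the only day at which a long row passed between KO and WT, and the row was Rnu3a, the U3 RNA needed for early cuts of the ribosomal RNA precursor, which was higher in KO. Rnu3a had 105 and 146 in KO and 52.4 and 20.6 in WT. Both KO libraries were above both WT libraries. The log2 fold change was 1.88 (SE 0.46, 95% interval 0.90 to 2.86), with an adjusted p of 0.0345 from limma over all 304 rows tested. It was the only one of the 35 long rows tested that passed, and 3.62% of all rows passed (1.64% as higher in KO). P-values here measure the spread between the 2 libraries of a group, pooled over all 8 groups and drawn towards a trend over rows. In bulk cultures fewer cells of a type and less RNA per cell cannot be told apart. The authors' deposited table gave Rnu3a a log2 of 1.57 (adjusted p = 0.00883) and Gm23262 a log2 of 1.21 (adjusted p = 0.0194), and no other long row under 0.05 at any day. The Rnu3a call was lost without KO replicate 2 (log2 2.11, adjusted p = 0.0896), without KO replicate 3 (1.65, adjusted p = 0.283) and without WT replicate 3 (1.23, adjusted p = 0.438), and it was kept without WT replicate 2 (2.53, adjusted p = 0.0268, limma).

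The other long rows mostly leaned the same way at day 14 without passing. The log2 fold change was above 0 in 29 of the 35, with a median of 0.60, against a median of -0.01 over all rows tested. In 18 of the 35 both KO libraries lay above both WT libraries, which held for 30.9% of all rows, and in 5 both lay below, which held for 35.5%. Gm24119, in an intron of the mitochondrial phosphate carrier gene Slc25a3, had 50.2 and 92.9 in KO and 22.5 and 27.4 in WT (log2 1.42, adjusted p = 0.104, limma). Gm23262 had 184 and 187 in KO and 96.9 and 51.4 in WT (log2 1.38, adjusted p = 0.139). Both KO libraries stood above WT for each, and both rows passed in edgeR (adjusted p = 0.0174 and 0.0133) and in DESeq2 (adjusted p = 0.038 and 0.0103). Snora7a, in the ribosomal protein gene Rpl32, had the highest log2 of the 35, at 2.61, but with a 95% interval of 0.45 to 4.77 and 0 reads in WT replicate 3. Snord17, with 59.2 and 55.4 in KO and 41.0 and 17.1 in WT, had a log2 of 1.08. Gm22711 had 41.2 and 47.3 in KO and 27.3 and 17.1 in WT, a log2 of 0.99. At the other end, Gm22362 had 63.0 and 22.3 in KO and 75.3 and 94.3 in WT (log2 -1.14), and Snord15b, Snora41, Scarna3b, Mir1839 and Snora36b were also below 0. U8 (Snord118) was close to even, at 141 and 149 in KO and 125 and 142 in WT, with a log2 of 0.12 and a 95% interval of -0.64 to 0.89.

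**Figure D3:**
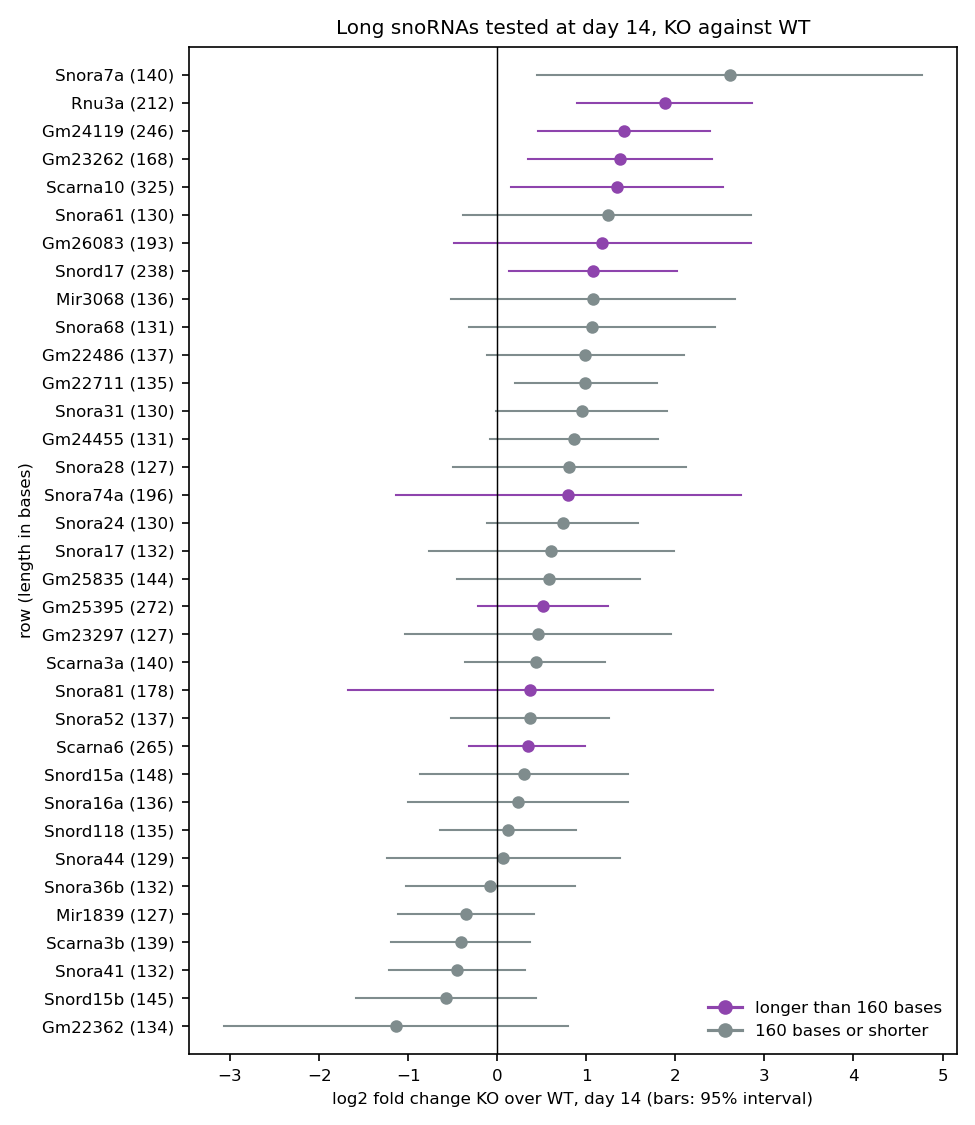
Log2 fold change of KO over WT at day 14 (horizontal axis) for the 35 long rows tested, with 95% intervals and the length of each row in brackets. Rows longer than 160 bases (purple) are all to the right of 0, and Rnu3a is the row that passed the test.

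Longer rows stood higher in this comparison, as a description with no test. All 10 rows over 160 bases had a log2 above 0 (median 1.13, lowest 0.34 for Scarna6), compared with 19 of the 25 shorter ones (median 0.46). The 6 of the 35 that overlap a miRNA row had a median of 0.18, with 3 above 0. Scarna3a, Scarna3b and Mir1839, which are among these, are shorter rows. The part of this overlap in the length pattern was not tested. Across the 35 rows Spearman's rho of log2 fold change with length was 0.28 at day 14, and it was -0.11, 0.04 and 0.01 at days 0, 4 and 7. The points share libraries and are not independent. By box, the median log2 at day 14 was 0.80 for the 21 rows with ACA in their last 10 bases and not both C and D boxes, 0.54 for the 8 with C and D boxes and 0.25 for the 6 with neither, Rnu3a among them. The limit of 160 bases was set after the values were seen.

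Other structural RNAs leaned the same way as the long snoRNAs at day 14. Ribosomal RNA rows made up 0.352% and 0.554% of the reads of the KO libraries and 0.148% and 0.134% of the WT libraries, with 14 of 15 rows tested above 0 and a median log2 of 1.13. Small nuclear RNA rows made up 0.0307% and 0.0552% in KO and 0.0154% and 0.0134% in WT, and all 4 tested were above 0 (median 1.08). Long snoRNAs made up 0.29% and 0.363% in KO and 0.192% and 0.16% in WT. That share includes rows such as Scarna3a and Mir1839, whose reads can also appear in miRNA rows. Short snoRNAs made up 1.57% and 1.8% in KO and 1.16% and 1.21% in WT. The remaining snoRNA rows had a median of 0.09 over 77 tested and miRNA rows one of -0.19 over 166. Among cell type markers, the 5 listed multiciliated cell miRNAs (miR-34b, miR-34c and the miR-449 group) summed to 9594 and 9899 in KO and 13224 and 15206 in WT, and the 6 epithelial ones (the miR-200 family and miR-205) to 16546 and 18841 in KO and 19792 and 20392 in WT. The listed neuroendocrine miRNAs, of which only 1 row had values at day 14, were at 4225 to 5404 in KO and 7871 to 7936 in WT. No haematopoietic, endothelial or mesenchymal marker row had a value at day 14. At day 0 the haematopoietic rows (2 of 5 listed miRNAs were in the table) summed to at most 4.64, and the mesenchymal rows to 35 and 36.2 in KO and 16.1 and 35.9 in WT. The part of these RNAs and cell types in the snoRNA result was not tested.

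At the earlier days no long row passed between genotypes in limma, edgeR or DESeq2. At day 0 it was 0 of 30 tested, against 0% of all rows, with 2 under an unadjusted p of 0.05. Both KO libraries lay above both WT libraries in 6 of the 30 rows, which held for 18.7% of all rows, and below them in 6, which held for 16.1%. The 2 rows with the smallest p were Scarna3a, with 86.9 and 52.9 in KO and 102 and 141 in WT (log2 -0.82, adjusted p = 0.573), and Snora17, with 15.4 and 18.6 in KO and 6.02 and 5.75 in WT (log2 1.38, adjusted p = 0.573). The groups did not overlap for either, but Snora17 met the filter only through its KO libraries, which favours a higher KO value. Mir1839 followed at a log2 of -0.65. At day 4, 0 of 36 passed (0.294% of all rows did), with 1 under an unadjusted p of 0.05. KO lay wholly above WT in 8 rows (15.6% of all rows) and wholly below in 3 (8.82% of all rows). The smallest p belonged to Snora81, in the translation factor gene Eif4a2, with 34.0 and 29.9 in KO and 5.05 and 5.59 in WT (log2 2.38, 95% interval 0.34 to 4.42, adjusted p = 0.998, limma). Snora81 too met the filter at day 4 only through its KO libraries. Its KO libraries of day 0 had 25.2 and 0.925, so replicates of this row can differ widely. Snord17 (log2 0.79) and Scarna3a (-0.61) followed. At day 7, 0 of 33 passed (0.312% of all rows) and 0 had an unadjusted p under 0.05. KO lay wholly above WT in 10 rows (22.1% of all rows) and wholly below in 7 (21.8% of all rows). Rnu3a had the smallest p, with 62.1 and 106 in KO and 40.8 and 52.0 in WT (log2 0.81), then Gm23262 (0.82) and Gm22711 (0.62). The medians of the long rows at days 0, 4 and 7 were 0.05, 0.11 and 0.04. Without KO day 7 replicate 2 the day 7 median was 0.56, with 23 of 33 rows above 0, and without KO day 7 replicate 3 it was -0.07. Without KO day 4 replicate 2 the day 4 median was 0.25. Without WT day 0 replicate 2 the day 0 median was -0.16, and it was 0.15 without KO day 0 replicate 3. At day 14 the median stayed between 0.45 and 0.90 on leaving out any 1 library.

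Averaged over the 4 days, 0 of 26 passed in limma, edgeR or DESeq2 (2.57% of all rows in limma), with 5 under an unadjusted p of 0.05 and a median log2 of 0.29, against 0.02 over all rows. The smallest p belonged to Gm24119 (log2 0.68, SE 0.23, adjusted p = 0.142), Rnu3a (0.68, SE 0.23, adjusted p = 0.142) and Gm22711 (0.51, adjusted p = 0.172, limma). This fit treats libraries of different days as independent. Libraries with the same replicate number correlated across days within a genotype (r = 0.3 to 0.46 in KO, 0.11 to 0.27 in WT). The SE and p-values of this average may thus be too small. 31 long rows had values at every day. The KO mean of the values before taking logs was above the WT mean at all 4 days for 7 of them: Gm24119, Gm24455, Gm25395, Gm25835, Snora28, Snora61 and Snora81. It was above at 3 days for 14: Gm22486, Gm22711, Gm23262, Gm23297, Gm26083, Rnu3a, Scarna6, Snora16a, Snora31, Snora52, Snora68, Snora7a, Snord118 and Snord17. It was above at 2 days for Gm22362, Scarna10, Snora24 and Snora44, at 1 for Scarna3a, Scarna3b, Snora36b and Snora41, and at none for Mir1839 and Snord15b. Of all 293 rows with values at every day, 38 were above at 4 days (13% against 22.6% of the long rows) and 69 at 3 days (23.5% against 45.2%). A mean of 2 libraries can be carried by 1 of them: on the log2 scale Snora81 was at -0.48 at day 0 and Gm24455 at -0.02 at day 7.

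In KO cultures, 7 long rows rose and 1 fell between day 0 and day 14, of 27 tested, while 29% of all rows passed, 12.5% as higher and 16.5% as lower at day 14. Of the 7, 2 overlapped a miRNA row that matched most of their level, Scarna3a and Mir1839. The count of long rows called was 9 higher and 2 lower with replicate number as a block, 3 higher and 2 lower with library totals, and 10 higher and 0 lower with scaling factors from miRNA rows. The median log2 of the 27 was 0.56, against 0.18 with library totals and 1.12 with those factors. All day 14 libraries lay above all day 0 libraries in 16 rows (34.8% of all rows) and below them in 2 (35.5% of all rows). Gm23262 had 37.1 and 48.2 at day 0, then 50.3 and 138 (day 4), 88.5 and 181 (day 7) and 184 and 187 (day 14). Its log2 of 2.10 at day 14 was the highest of the 27 (SE 0.48, adjusted p = 0.00558, limma). Snora68, an H/ACA guide for ribosomal RNA, had 69.4 and 91.1 at day 14 and 13.3 and 26.9 at day 0 (log2 2.01, SE 0.65, adjusted p = 0.0321). For both, the groups did not overlap. Gm24119 rose by a log2 of 1.65 (adjusted p = 0.0142), at 50.2 and 92.9 on day 14 and 25.2 and 17.6 on day 0. Rnu3a rose by a log2 of 1.27 (adjusted p = 0.0494), at 105 and 146 on day 14 and 50.4 and 51.0 on day 0.

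Scarna3a, Mir1839 and Gm25395 also rose in KO. Scarna3a had 203 and 227 at day 14 and 86.9 and 52.9 at day 0 (log2 1.65, adjusted p = 0.00471, limma). The miR-1843b-3p row inside it had a log2 of 1.75 (adjusted p = 0.00508), whereas the miR-1843b-5p row had one of 0.13. Mir1839 had 69.4 and 61.6 at day 14 and 26.6 and 23.2 at day 0 (log2 1.36, adjusted p = 0.011), with miR-1839-5p at a log2 of 1.4 (adjusted p = 0.0121). Gm25395, annotated as a scaRNA in an intron of the autophagy gene Atg16l1, had 82.3 and 83.0 at day 14 and 44.8 and 26.0 at day 0 (log2 1.25, adjusted p = 0.0124). Scarna6, in another intron of the same gene, had 74.6 and 106 at day 14 and 66.6 and 79.8 at day 0, a log2 of 0.29 that did not pass. The row that fell was Snora41, with 36 and 33.0 at day 14 and 72.9 and 69.6 at day 0 (log2 -1.02, SE 0.35, adjusted p = 0.042). Its day 14 libraries lay below its day 0 libraries. U8 (Snord118) had 141 and 149 at day 14 and 149 and 117 at day 0.

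**Figure D4:**
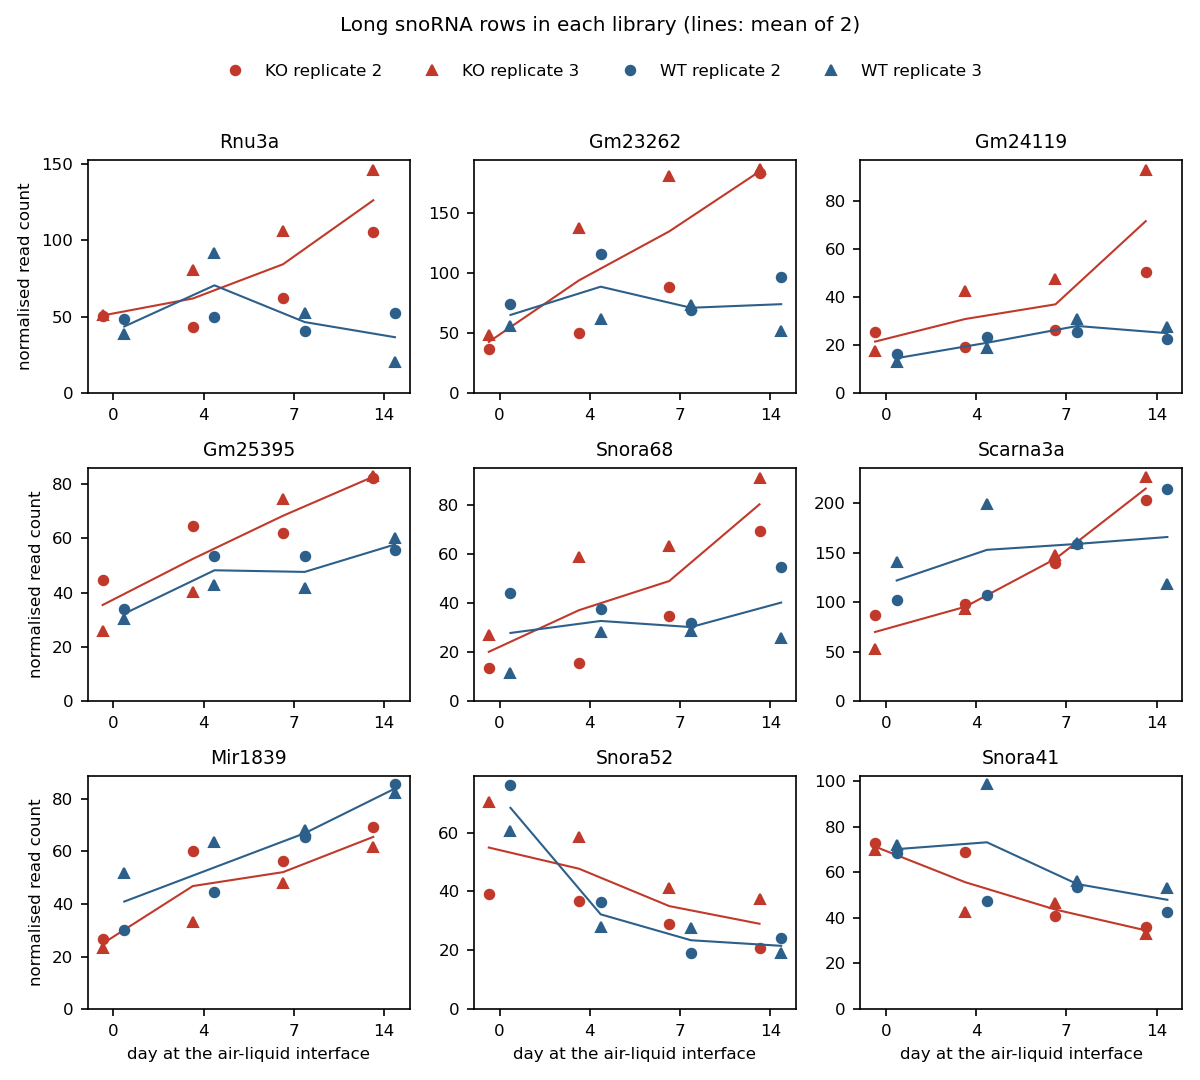
Normalised read counts (vertical axis, from 0) of 9 long rows in each library at days 0, 4, 7 and 14 (equally spaced), KO in red and WT in blue, circles for replicate 2, triangles for replicate 3, lines through the means. Rnu3a, Gm23262 and Gm24119 have both KO libraries above both WT libraries at day 14, and Snora52 is lower at days 7 and 14 than at day 0 in both WT replicates.

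These KO calls were of uneven strength. Gm23262 passed without any 1 library (log2 1.92 to 2.29, adjusted p at most 0.0455, limma). Scarna3a lost its call without KO day 0 replicate 3 only (log2 1.30, adjusted p = 0.0618), and Rnu3a and Snora41 on leaving out any 1 of the 4 (adjusted p 0.0838 to 0.236 and 0.117 to 0.178). Gm24119 lost it without KO day 0 replicate 3 (log2 1.40, adjusted p = 0.113) and without KO day 14 replicate 3 (1.21, adjusted p = 0.171). Gm25395 and Mir1839 lost it without KO day 0 replicate 3, KO day 14 replicate 2 or KO day 14 replicate 3 (adjusted p 0.0651 to 0.152 and 0.0582 to 0.0763). Snora68 lost it without KO day 0 replicate 2 (log2 1.53, adjusted p = 0.186), KO day 14 replicate 2 (adjusted p = 0.0753) or KO day 14 replicate 3 (adjusted p = 0.161). Snora41 was at -0.46 with scaling factors from miRNA rows (adjusted p = 0.357), which move the median of all rows to 0.59, and it missed in DESeq2 (log2 -1.01, adjusted p = 0.0702). Scaling to library totals, which moves the median of all rows to -0.35, ended the calls of Gm24119 (log2 1.28), Gm25395 (0.87), Rnu3a (0.89) and Snora68 (1.64), at adjusted p of 0.0528 to 0.145.

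Earlier days gave fewer differences in KO. At day 4, 0 of 30 passed in limma, edgeR or DESeq2 (3.53% of all rows in limma), with 2 under an unadjusted p of 0.05: Snora81 (log2 2.21) and Mir1839 (0.83). Snora81 met the day 4 filter only through its KO libraries. Gm23262 followed at 0.96. Day 4 lay wholly above day 0 in 9 rows (19.6% of all rows) and wholly below in 5 (27.2% of all rows). At day 7, 0 of 28 passed (10.1% of all rows), while edgeR called 1 and DESeq2 called 2, and 6 were under an unadjusted p of 0.05, among them Gm23262 (log2 1.56, adjusted p = 0.0577), Scarna3a (1.08) and Mir1839 (1.03). Day 7 lay wholly above day 0 in 10 rows (24.2% of all rows) and wholly below in 3 (38.4% of all rows). With replicate number as a block, the KO count was 2 at day 7, Gm23262 (adjusted p = 0.0102) and Mir1839 (adjusted p = 0.0405, limma).

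In WT cultures the change that passed in limma was a fall of Snora52, an H/ACA RNA from Rplp2. It had 76.3 and 60.4 at day 0, then 36.4 and 28.0 (day 4), 19.2 and 27.5 (day 7) and 24.2 and 18.9 (day 14). All later libraries lay below those of day 0. The log2 against day 0 was -1.07 at day 4 (adjusted p = 0.248), -1.52 at day 7 (SE 0.42, adjusted p = 0.0377) and -1.62 at day 14 (SE 0.41, adjusted p = 0.0153, limma). It was the only 1 of 28 rows called at day 7, when 7.41% of all rows passed (4.04% as lower), and the only 1 of 27 at day 14, when 14.3% passed (7.89% as lower). At day 4, 0 of 30 passed in limma, edgeR or DESeq2 (2.56% of all rows in limma), with 2 under an unadjusted p of 0.05, Snora52 and Snord118 (log2 0.79). Snora24 followed at -0.69. In KO, Snora52 had 20.6 and 37.5 at day 14 and 39.2 and 70.5 at day 0, a log2 of -0.90 (adjusted p = 0.125). It passed as lower in KO with replicate number as a block (adjusted p = 0.0481) and with library totals (log2 -1.27, adjusted p = 0.0397). The Snora52 calls at days 7 and 14 were lost with the compared libraries alone (adjusted p = 0.0862 and 0.0618), and that at day 7 also in edgeR (log2 -1.29, adjusted p = 0.0932) and with factors from miRNA rows (adjusted p = 0.0536). At day 7 it was also lost on leaving out any 1 of the 4 libraries (adjusted p 0.0619 to 0.21). At day 14 it was kept without WT day 0 replicate 3 (adjusted p = 0.0296) and lost without WT day 0 replicate 2, WT day 14 replicate 2 or WT day 14 replicate 3 (adjusted p 0.055 to 0.144).

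In limma no long row passed as higher in WT. WT libraries of day 4 lay wholly above day 0 in 8 rows (15.7% of all rows) and wholly below in 5 (21.8% of all rows). At day 7 these were 12 rows (27.6% of all rows) and 5 rows (29.3%), and at day 14 they were 9 rows (27.6%) and 4 rows (28.7%). Mir1839 had 85.5 and 82.3 at day 14 and 30.1 and 51.8 at day 0 (log2 1.07, adjusted p = 0.0557, limma), and miR-1839-5p inside it passed (log2 1.26, adjusted p = 0.0302). Scarna3b had 55.5 and 75.4 at day 14 and 30.1 and 30.2 at day 0 (log2 1.08, adjusted p = 0.0583), and it passed in edgeR (log2 1.20, adjusted p = 0.0459). With replicate number as a block, both passed (adjusted p = 0.0276 and 0.03), which made 3 calls at day 14. At day 7 the block made 2, Snora52 and Snora16a (log2 -1.11, adjusted p = 0.0393). Snora24, from the snoRNA host Snhg8, had 13.2 and 22.3 at day 14 and 34.1 and 44.6 at day 0 (log2 -1.14, adjusted p = 0.0693). Rnu3a had 52.4 and 20.6 at day 14 and 48.2 and 38.8 at day 0 in WT, so its replicates overlap. The median log2 of the long rows in WT was 0.16, 0.29 and 0.36 at days 4, 7 and 14. It was -0.27, -0.42 and -0.63 when values were scaled to library totals, which moves the median of all rows to -0.53, -0.86 and -1.08.

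No long row passed the test of whether the change between day 0 and day 14 differed between KO and WT (0 of 27, against 0% of all rows, with 5 under an unadjusted p of 0.05). edgeR and DESeq2 also called 0. Gm23262 came first, at a log2 difference of 1.98 (SE 0.68, 95% interval 0.52 to 3.43, adjusted p = 0.194, limma), followed by Rnu3a (1.65, adjusted p = 0.214) and Scarna3a (1.24, adjusted p = 0.231). With replicate number as a block, Gm23262 passed (adjusted p = 0.0333). The median difference was 0.42 over the long rows and -0.02 over all rows. The median was 0.56 for KO and 0.36 for WT at day 14 against day 0. With library totals it was 0.18 for KO and -0.63 for WT, and the median difference was 1.02 over the long rows and 0.56 over all rows.

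**Figure D5:**
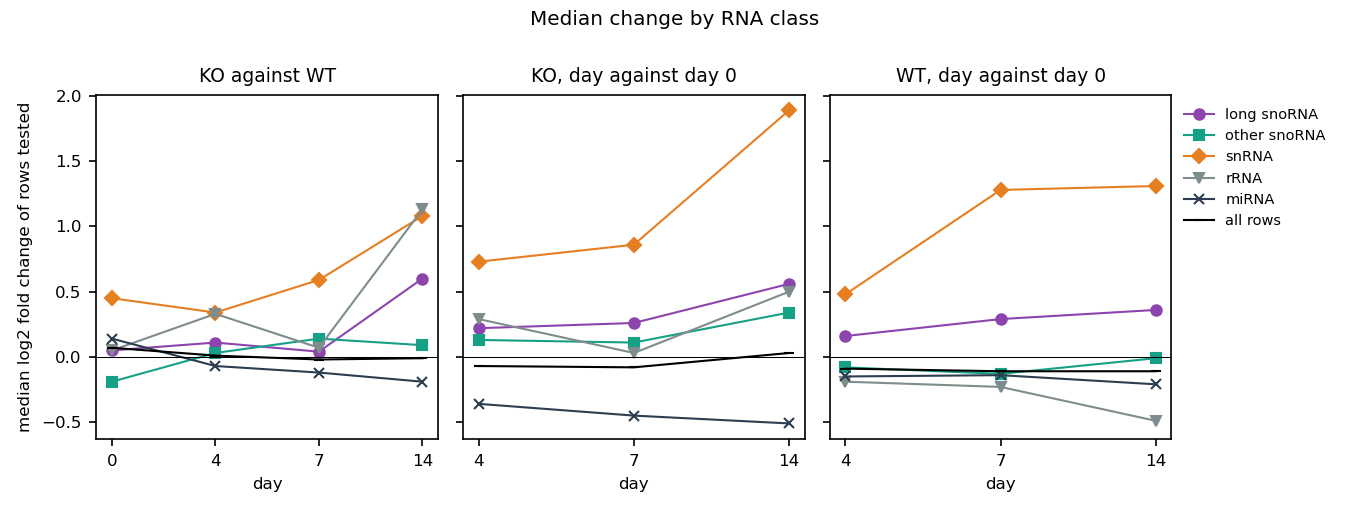
Median log2 fold change of the rows tested in each RNA class (vertical axis) by day, for KO against WT, for each KO day against day 0 and for each WT day against day 0. At day 14 the long snoRNA median is 0.60 for KO against WT, below those of ribosomal RNA (1.13) and small nuclear RNA (1.08) rows and above those of the other classes drawn.

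Position was shared by many members. 124 of the 137 long rows lay inside a host gene on the same strand, 80 in introns, 31 in annotated exons and 13 across an exon edge, and 17 hosts held more than 1. Of the 3 rows in the non-coding snoRNA host Snhg12, Snora16a had 28.0 to 111 over days 0 and 4, Snora61 8.03 to 89.1 and Snora44 3.71 to 23.0. In the translation factor gene Eif4a1, Gm25835 had 12.9 to 34.0, while Gm24029 and Gm22988 had at most 5.75 and 2.10. In Taf1d, Gm24455 had 11.2 to 30.6, while Gm25791 and Gm22620 had at most 0.699 and 2.30. In Eif4a2, Snora81 had 0.925 to 34.0, and its 3 shorter neighbours at most 8.63. Among scaRNAs not described so far, over days 0 and 4 Scarna10 had at most 23.0, Scarna8 at most 18.7, Scarna2 at most 13 and Scarna13 at most 4.59.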

How the data were processed

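Small RNA reads of 16 libraries in 8 groups were used. The main table's header says raw counts, yet the values are a signal already normalised by the authors, separately for each day. The submitters' processing notes name DESeq2 and mm10; no aligner, counter or strand setting is stated in the sources used here. A second deposited table holds the authors' own log2 fold changes and adjusted p-values of KO over WT, per the file headers. Whole reads follow from the value of a single read in each library (tolerance 0.0055 on the deposited value), with less certainty at days 7 and 14. Values were then multiplied by 1 factor per day, a log2 shift of 0.246, 0.178, -0.42 and -0.047 at days 0, 4, 7 and 14, set on 287 rows. The floor of 3 reads covers counting error only, since PCR copies cannot be told from separate molecules.

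limma 3.58.1 in R 4.3.3 was fitted on log2 of the value plus 1, with a variance trend and all libraries. Folds on that scale understate changes of low rows. Adjusted p are Benjamini-Hochberg values over all rows tested, with a threshold of 0.05. The fit was tested on simulated data. Alternatives were edgeR 4.0.16 and DESeq2 1.42.0 on recovered reads, library totals, scaling factors from miRNA rows, no filter, a pseudocount of 5, replicate blocks, the compared libraries alone and leaving out each library.

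Named rows were those past the threshold, the 10 highest per 100 bases at day 0, U3, Snora73, Snora74, Snord118 and Scarna rows, rows with values at all days, and the 3 smallest p where none passed. Members and lists were chosen with earlier results of these data known. The labels number the 2 libraries of each group as replicates 2 and 3, and they were treated as independent. Deviations of libraries with the same number correlated at r = 0.3 to 0.46 within KO and 0.11 to 0.27 within WT (6 pairs of days each, 272 rows). Between genotypes at the same day r was -0.24 to 0.17, so any pairing by number lies within a genotype and is weaker in WT. The replicate block nonetheless joined equal numbers across genotypes for KO against WT. It was set within each genotype for the other comparisons. 5 rows that repeat a named miRNA were left out.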

Additional observations from a re-analysis of the deposited data

Results flagged for a closer look

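In 5 of the 36 long snoRNAs tested at 2 or more days, both KO libraries lay above both WT libraries at 1 day or more and below them at another. The same held for 66 of 343 rows of all kinds (19.2%). For Gm23262, KO was higher at days 7 and 14 and lower at day 0, a gap of 1.98 on the log2 scale between day 14 and day 0. For Scarna10 the gap between day 14 (higher) and day 0 (lower) was 1.92, and for Snora24 it was 1.21. The difference between day 14 and day 0 was tested and did not pass for these 3 (adjusted p = 0.194, 0.236 and 0.268, limma). For Snora31, KO was higher at days 0 and 14 and lower at day 4, a gap of 1.24 between days 14 and 4. For Snord17, KO was higher at days 4 and 14 and lower at day 7, a gap of 1.31 between days 14 and 7. The last 2 gaps were not tested.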

How the results depend on the processing

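No call given above changed direction under any alternative. Without WT day 0 replicate 3, however, the row called in WT at day 7 was another than Snora52, and it was higher. At day 14 a row other than Snora52 was also called higher there. Long snoRNAs called in KO against WT at day 14 numbered 1 in limma, 3 with library totals, 3 with the compared libraries alone, 4 in edgeR and 3 in DESeq2. In WT at day 7 the count was 1, then 6 (all lower) with library totals, 2 with the replicate block and 0 with factors from miRNA rows, with the compared libraries alone and in edgeR. In WT at day 14 it was 1, then 6 (all lower) with library totals, 3 with the block, 2 in edgeR (Scarna3b higher, Snora52 lower) and 0 with the compared libraries alone. In KO at day 7 it was 0, then 2 (both lower) with library totals, 4 with factors from miRNA rows, 1 with no filter, 2 with the block, 1 in edgeR and 2 in DESeq2. In KO at day 14 it was 8 (7 higher), and 5 with library totals (3 higher). For the interaction it was 0, then 1 with library totals (Scarna3a) and 1 with the block. The block changed no other count by more than 1.5 times; in KO at day 14 it gave 11.

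Leaving out 1 library gave 0 to 2 calls for KO against WT at day 14, 0 to 1 in WT at day 7, 0 to 2 in WT at day 14, 0 to 1 in KO at days 4 and 7 and 2 to 7 in KO at day 14. It gave 0 for KO against WT at days 0, 4 and 7 and averaged over days, for WT at day 4 and for the interaction. At day 14 the median of the long rows for KO against WT stayed between 0.45 and 0.90 without 1 library and was 0.94 with library totals, which move the median of all rows to 0.34. With factors from miRNA rows the 2 medians were 0.81 and 0.20. At day 0 the median of the long rows was -0.18 with library totals and -0.22 with those factors. Low counts limit what could be tested: 40 of the 137 rows entered any test.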
